A study of Homo sapiens with 2 samples.

Results

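The receptors of the EGFR (ERBB) family and the ligands of EGFR were examined in bulk RNA-seq libraries of doxorubicin-resistant SUM159 cells. The 10 genes were the receptors EGFR, ERBB2, ERBB3 and ERBB4 and the ligands AREG, EREG, HBEGF, TGFA, BTC and EGF, taken by gene symbol from a list, and all 10 were found among the 23368 symbols of the count files. SUM159 is a triple-negative breast cancer line, given as genotype Wt in the labels. It was grown attached, in a monolayer, in Ham's medium with serum, insulin and hydrocortisone, with no ERBB ligand named among the additions. Resistance was raised by long treatment with rising doses of doxorubicin, a topoisomerase II poison, with recovery in drug-free medium. Polyadenylated RNA was sequenced in 2 libraries, labelled as replicates 1 and 2 of this 1 condition, and nothing states that they came from separate cultures, so their spread may be technical. Treatment-naïve and paclitaxel-resistant libraries were not analysed here, so levels are described and no change upon resistance was tested.

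The ERBB receptors are tyrosine kinases of the cell surface that pair up when a ligand binds and pass the signal to the RAS-MAPK and PI3K pathways. Their ligands are made as membrane-bound precursors, and ADAM proteases cut off the active growth factor. ERBB2 has no known ligand of its own and acts as a partner, whereas ERBB3 binds neuregulins and has little kinase activity. EGFR is often expressed in basal-like breast tumors, and low HER2, the product of ERBB2, is part of the definition of triple-negative disease.

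The ligands share the EGF-like domain that binds the receptor, and this is the stretch through which the abundant and the scarce ligands can be recognized as a family. It was searched for in the coding sequence of the ligands on GRCh37 as 6 cysteine codons, TGT or TGC. The spacing allowed was 7, 4 or 5, 10 to 13, 1 and 8 other codons between them. All 6 ligands held such a stretch, each with 10 codons in the third gap. Each ligand gene held 1 stretch of this spacing, of 36 codons in 5 genes and 37 in EGF. EGF-like domains of other spacing were not searched for, so the number of such domains in a gene is not given here. The spacing searched for occurred in the longest coding sequence of 41 of 20163 protein-coding genes, or 0.203%. The stretches of the 4 ligands with counts well above 0 are given 5′ to 3′ on the coding strand, with the cysteine codons in capitals.
EREG: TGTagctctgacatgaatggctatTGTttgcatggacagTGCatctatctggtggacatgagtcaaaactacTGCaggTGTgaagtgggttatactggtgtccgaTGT
HBEGF: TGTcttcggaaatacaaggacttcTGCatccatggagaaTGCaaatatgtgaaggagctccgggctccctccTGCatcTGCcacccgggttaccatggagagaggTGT
TGFA: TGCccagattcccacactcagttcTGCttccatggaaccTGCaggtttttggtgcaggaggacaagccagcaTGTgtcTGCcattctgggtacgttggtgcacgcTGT
AREG: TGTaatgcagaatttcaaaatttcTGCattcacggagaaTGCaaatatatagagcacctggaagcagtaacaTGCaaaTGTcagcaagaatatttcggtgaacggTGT
Over the 108 bases, EREG and TGFA had 46.3% of bases in common, the lowest share among the 5 genes with 36 codons, and TGFA and BTC had 63.0%, the highest. On the chromosomes, the stretch of EREG lies at chr4:75246778-75248392 and that of AREG at chr4:75314889-75316127, both on the forward strand. That of HBEGF lies at chr5:139715582-139722296 and that of TGFA at chr2:70683590-70692824, both on the reverse strand. Each of these 4 stretches spans 2 coding exons.

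The counts in genes summed to 23044084 in replicate 1 and 17985508 in replicate 2. Levels are given as counts per 1000000 counts of the library (CPM). Levels of different genes were compared after division by the exonic length, the union of all annotated exons in kilobases (CPM per kb). Where CPM or counts of different genes are set side by side without this division, gene length is not accounted for. The limit of detection was set at 3 counts, or 0.130 CPM for replicate 1 and 0.167 CPM for replicate 2. Of the 5 mesenchymal markers, VIM was lower in replicate 2, with 8159 and 6925 CPM, and the others were higher there. FN1 had 2027 and 5101 CPM, SPARC 1989 and 2171, CDH2 196 and 264, and ZEB1 40.9 and 71.6. Of the 5 epithelial markers, 2 were abundant, the keratins KRT8 with 308 and 223 CPM and KRT18 with 409 and 282 CPM. The epithelial markers CDH1, EPCAM and KRT5 had 9 and 13, 6 and 6, and 2 and 2 counts. The hormone receptor genes ESR1 and PGR had 11 and 9 and 2 and 0 counts. Of the leukocyte markers, CD3E was at 0 in both libraries, PTPRC had 48 and 31 counts, and CD14 had 356 and 137. The 3 endothelial markers summed to 1.08 and 1.11 CPM, and the 3 fibroblast markers to 113 and 106 CPM, mostly PDGFRA with 111 and 103 CPM.

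A mean count of 20, the minimum in the study's bulk analysis, was reached by 6 of the 10 genes, EGFR, ERBB2, EREG, HBEGF, TGFA and AREG. ERBB3 fell just under it, and ERBB4, BTC and EGF were at or below the limit of 3 counts in both libraries. Per length, and with AREG as counted, EREG was the highest of all 10 genes in each library. In CPM without division by length, EREG was the highest in replicate 1 only. In replicate 2, EGFR at 244 CPM was above EREG at 181 CPM. Of the receptors, ERBB2 was steady and EGFR was not.

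**Figure D1:**
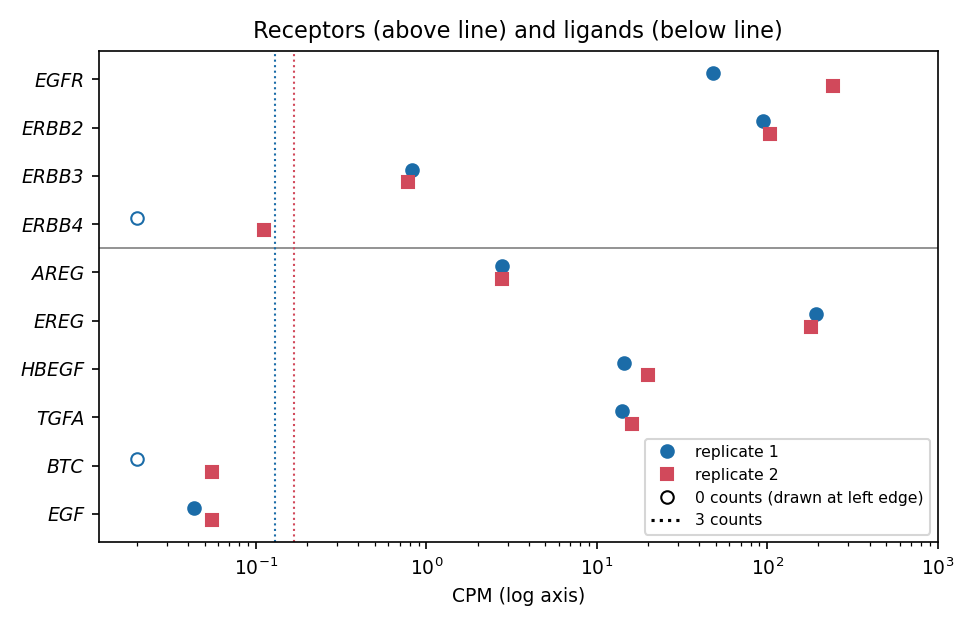
CPM on a log axis of the 4 receptors, above the line, and the 6 ligands, below it, in replicate 1 (blue circles) and replicate 2 (red squares). Open symbols are 0 counts, drawn at the left edge, and dotted lines mark 3 counts, so that ERBB4, BTC and EGF lie left of the lines, EREG lies near 190 CPM at 194 and 181, and EGFR is split at 48.2 and 244 CPM.

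EGFR, the receptor for all 6 ligands, lies on chromosome 7 of GRCh37 from 55086710 to 55279321. It had 1111 counts in replicate 1 and 4397 in replicate 2, or 48.2 and 244 CPM. Replicate 2 was the higher by 5.07-fold. The 95% Poisson intervals, which cover counting error only, were 45.4 to 51.1 and 237 to 252 CPM. The gene was put on the list with this difference known, so the difference is described and not tested. Its mean of 146 ± 139 CPM (SD, n = 2) therefore stands for neither library.

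ERBB2, which encodes HER2, lies on chromosome 17 from 37844167 to 37886679. It had 2191 and 1877 counts, or 95.1 and 104 CPM, with a mean of 99.7 ± 6.56 CPM (SD, n = 2). Replicate 2 was 1.10-fold higher (adjusted p = 0.00651, edgeR's exact binomial test). The test covers counting error only and compares these libraries, not conditions. Per length, ERBB2 had 9.21 and 10.1 CPM per kb, above 78.6% of the annotated genes by its mean. Here and below, the annotated genes include those without counts. Within replicate 1, ERBB2 was 3.05-fold above EGFR per kb, and within replicate 2, EGFR was 1.52-fold above ERBB2. Which of these receptors led thus differed between the libraries. The exons of ERBB2 overlap those of MIEN1 on the opposite strand over 571 bp, or 5.53% of its exonic length. The exons of EGFR overlap the antisense gene EGFR-AS1 over 186 bp, or 1.17%. The strand setting of the counting was not given in the sources used here, so reads in these overlaps cannot be assigned.

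ERBB3, the receptor of neuregulins on chromosome 12 from 56470583 to 56497289, had 19 and 14 counts. These are 0.825 and 0.778 CPM, with 95% Poisson intervals of 0.496 to 1.29 and 0.426 to 1.31 CPM that overlapped almost fully. ERBB4, a receptor of neuregulins and of some EGFR ligands on chromosome 2 from 212240442 to 213403565, had 0 and 2 counts. Both values of ERBB4 were within the limit that a count of 0 allows, so no ratio was formed.

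EREG encodes epiregulin, a ligand of EGFR and ERBB4, and lies on chromosome 4 from 75230862 to 75254466. It had 4462 and 3253 counts, or 194 and 181 CPM, and its mean was 187 ± 9.02 CPM (SD, n = 2). Per length, it had 33.9 and 31.7 CPM per kb, above 93.4% of the annotated genes by its mean. The libraries lay close, with replicate 1 higher by 1.07-fold (adjusted p = 0.00641, edgeR's exact binomial test). With AREG as counted, EREG made up 78.3% of the summed ligand level per kb in replicate 1 and 73.1% in replicate 2. It was 11.2-fold above EGFR per kb in replicate 1 and 2.06-fold above it in replicate 2.

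HBEGF encodes the heparin-binding ligand of EGFR and ERBB4 and lies on chromosome 5 from 139712428 to 139726188. It had 333 and 358 counts, or 14.5 and 19.9 CPM, with a mean of 17.2 ± 3.86 CPM (SD, n = 2). Replicate 2 was 1.38-fold higher (adjusted p = 7.78e-05, edgeR's exact binomial test). TGFA encodes transforming growth factor alpha and lies on chromosome 2 from 70674416 to 70781325. Its 326 and 288 counts were 14.1 and 16.0 CPM. Its mean was 15.1 ± 1.32 CPM (SD, n = 2), and replicate 2 was 1.13-fold higher, which did not pass that test of edgeR (exact binomial, adjusted p = 0.195). Per length, HBEGF with 4.83 and 6.66 CPM per kb was above TGFA with 2.88 and 3.26 CPM per kb in each library.

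BTC, the gene of betacellulin on chromosome 4 from 75669969 to 75719733, had 0 and 1 counts. EGF itself, on chromosome 4 from 110834039 to 110934922, had 1 count in each library. Both genes were within the limit that a count of 0 allows and were not detectable at this depth.

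AREG encodes amphiregulin, an EGFR ligand, and its level could not be read from these counts alone. It had 64 and 50 counts, or 2.78 and 2.78 CPM, a ratio of 1.00 between the libraries (adjusted p = 1, edgeR's exact binomial test). On GRCh37, AREG lies on chromosome 4 from 75310853 to 75320722, and a near-identical copy, annotated as AREGB, lies at 75480629 to 75490486, 159906 bp further on. AREGB had no row in the count files. Exon by exon, the 1234 bases of the 6-exon AREG transcript differed from the copy at 1 base, in the coding part of exon 1. The last exon of the copy is annotated as 252 bases and that of AREG as 247. The stretches around it are printed because reads covering this base are the ones that tell the loci apart. They lie at chr4:75311078-75311107 in AREG and chr4:75480854-75480883 in the copy, on the forward strand. Counted from the 5′ end of the printed stretch, the difference is G15A, with the AREG base first and the differing base in capitals.
AREG: ctaccgccggcgccGgtggtgctgtcgctc
AREGB: ctaccgccggcgccAgtggtgctgtcgctc
Of the 1135 stretches of 100 bases, the read length, in the spliced AREG transcript, 1035 were also in the copy, and 100 were found in AREG alone, or 8.81%. The EGF-like stretch of AREG printed above lies wholly in exons without a difference. In the exons of the other 9 genes, 0 of the 100-base stretches occurred a second time in the genome. Counting programs often drop reads that match 2 places, and the setting used for these counts was not stated. If only the reads from the stretches found once had been counted, dividing by their share would give 31.5 and 31.6 CPM, or 19.2 CPM per kb in each library, below EREG. Within the separate exons, where no stretch crosses a splice site, 3.05% of the stretches were found once, and dividing by that share would give 55.4 CPM per kb in each library, above EREG. The value as counted, 1.69 CPM per kb in each library, is below TGFA, so the place of AREG among the ligands was not set by these counts.

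EREG and AREG lie in a cluster of EGF-family ligand genes on chromosome 4, together with EPGN and BTC, over 545547 bp. From the low to the high coordinate, EPGN had 0.460 and 1.21 CPM per kb, EREG had 33.9 and 31.7, AREG had 1.69 and 1.69 as counted, and BTC had 0 and 0.0210 CPM per kb. EREG and AREG, on the same strand, lie 56386 bp apart. Within the cluster, and with AREG as counted, levels thus ran from not detectable, for BTC, to above 93.4% of the annotated genes, for EREG.

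Set against each other, the ligands outweighed the receptors in both libraries per length, but not in CPM without division by length. In CPM, the receptors summed to 144 and 350 and the ligands to 225 and 220, so that the receptors held 39.0% in replicate 1 and 61.4% in replicate 2. Per length, the 4 receptors summed to 12.3 CPM per kb in replicate 1 and 25.5 in replicate 2, and the 6 ligands to 43.3 CPM per kb in each. The receptors thus held 22.1% and 37.1% of the summed level, 29.6% ± 10.6 (SD, n = 2). EGFR made up 24.6% of the receptor sum in replicate 1 and 60.1% in replicate 2. Without EGFR, the receptors summed to 9.28 and 10.2 CPM per kb, and their share over the other 9 genes was 18.4% ± 0.986 (SD, n = 2). The values on the length scale depend on the annotated length. With the longest transcript of each gene in its place, the receptor sums were 24.3 and 46.0 CPM per kb and the ligand sums 53.8 in each library, and the receptor share was 38.6% ± 10.6 (SD, n = 2). On this scale too ERBB2 led EGFR in replicate 1, by 3.96-fold, and EGFR led ERBB2 in replicate 2, by 1.17-fold.

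**Figure D2:**
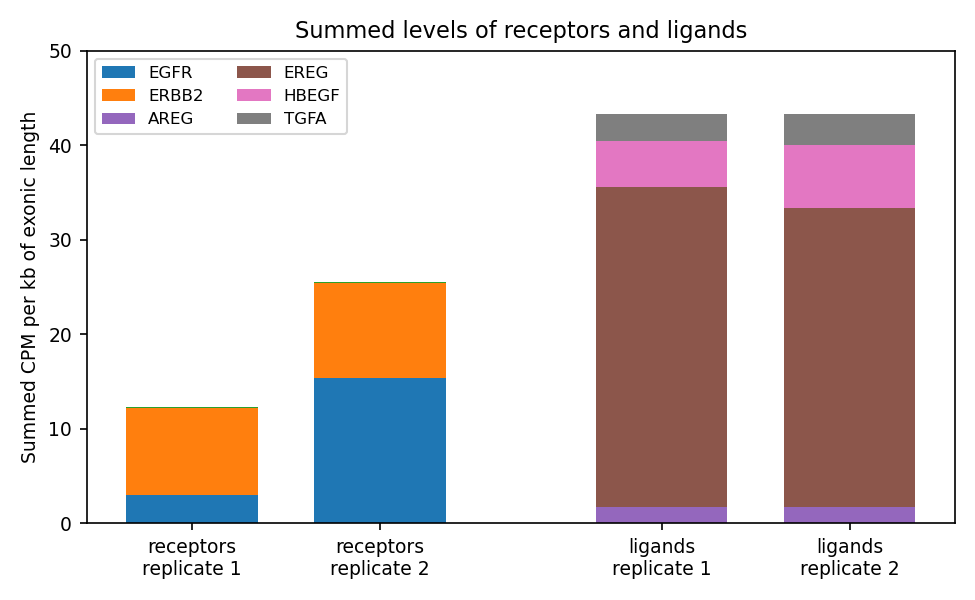
Summed CPM per kb of exonic length of the 4 receptors and the 6 ligands in each library, as stacked bars with each gene in its own color; ERBB3, ERBB4, BTC and EGF are too low to be seen. The ligand bars reach 43.3 in both libraries, mostly EREG, and the receptor bars reach 12.3 and 25.5, the difference lying in EGFR.

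By length-scaled level, EREG was first in both libraries among the genes other than AREG, whose place was not set. ERBB2 came next in replicate 1, followed by HBEGF, EGFR at 3.02 CPM per kb and TGFA, whereas EGFR came second in replicate 2 at 15.3 CPM per kb and was followed by ERBB2, HBEGF and TGFA. The range of EGFR over the libraries covered the ranges of ERBB2 and HBEGF and overlapped that of TGFA, so EGFR cannot be placed among these. The ranges of EREG, ERBB2, HBEGF and TGFA did not overlap one another.

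Beyond counting error, 3 of the 6 genes other than EGFR with at least 10 counts over both libraries differed by edgeR's exact binomial test, with Benjamini-Hochberg adjustment over all 13744 such genes. ERBB2 and HBEGF were higher in replicate 2 and EREG in replicate 1, while TGFA, AREG and ERBB3 were not called. The same test called 57.7% of all genes tested, 30.1% as higher in replicate 2 and 27.6% as higher in replicate 1, so such a call was ordinary between these libraries. None of the 6 differed by 2-fold, from 1.07-fold higher in replicate 1 for EREG to 1.38-fold higher in replicate 2 for HBEGF. Of all genes tested, 7.67% differed by at least 2-fold, 4.34% toward replicate 2, as EGFR did, and 3.33% toward replicate 1. The median log2 ratio of the 6, replicate 2 over replicate 1, was 0.07, against −0.01 over all genes. The spread between the libraries over all genes amounted to a coefficient of variation of 22.3%. With it, the negative binomial exact test of edgeR called 0.291% of all genes and none of these 6. Of the 6, 0 had an unadjusted p under 0.05 in it, beside 5.40% of all genes. The spread was estimated from the same 2 libraries that were compared. Few calls therefore follow from how the test was set up, and it cannot decide whether these genes differ.

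The ratio between the libraries moved with gene length. Across 10767 genes with a mean count of at least 20, Spearman's rho between the log2 ratio and exonic length was 0.55, a value across genes that share the same 2 libraries. EGFR has an exonic length of 15941 bp, and a lowess curve over the 11781 tested genes with an annotated length gave a ratio of 1.36 at that length. The log2 ratio of EGFR was 2.34 and lay 1.90 above the curve, a remaining 3.74-fold. Because EGFR was listed with its difference between the libraries known, its distance from the curve and its ranks are described and support nothing. EGFR was among the 9 genes of highest ratio of 12340 with a mean count of at least 20. Of the 526 genes at least as long, 3 had a ratio at least as high, EGFR included, and the median ratio of the 526 was 1.40. Measured from the curve, 38 of 11781 genes, EGFR included, stood as high as EGFR. The curve also turned the direction of ERBB2, from 0.13 to −0.15 on the log2 scale. HBEGF, whose exonic length is 2990 bp, went from 0.46 to 0.66. The part of length in these differences was not tested further.

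**Figure D3:**
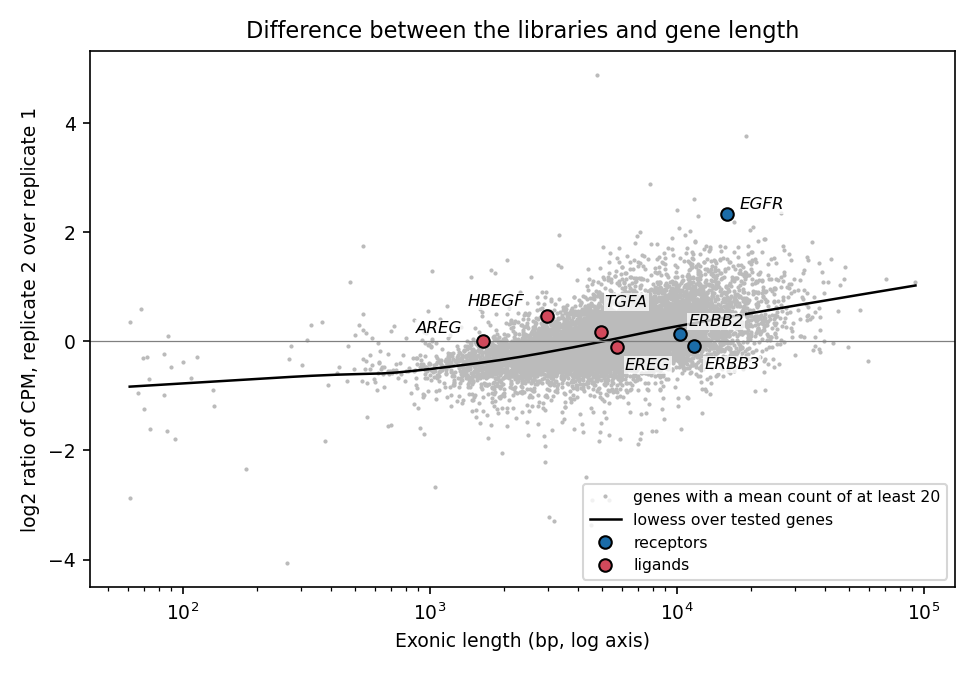
Log2 ratio of CPM, replicate 2 over replicate 1, against exonic length in bp on a log axis. Grey dots are genes with a mean count of at least 20, the black line is the lowess curve, and receptors (blue) and ligands (red) with at least 10 counts over both libraries are marked; EGFR at 2.34 stands 1.90 above the curve, and the other members lie within the cloud.

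The genes beside EGFR on chromosome 7 did not share its ratio. They were chosen after the values of EGFR were seen, as the nearest genes on either side with counts. SEC61G, a subunit of the endoplasmic reticulum translocon, was lower in replicate 2, with 46.0 and 26.1 CPM. LANCL2 had 25.2 and 28.2 CPM, and VOPP1 had 34.4 and 34.2 CPM. The ratios of replicate 2 over replicate 1 were 0.569, 1.12 and 0.995, against 5.07 for EGFR. For the other genes within 1000000 bp with at least 10 counts over both libraries, ratios ran up to 1.96, for ZNF713 with 17 and 26 counts. These ratios are not adjusted for length. The exonic length of SEC61G is 1842 bp and that of LANCL2 and VOPP1 5341 bp each, against 15941 bp for EGFR.

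Other genes of the pathway were taken from 6 lists of 52 genes by role, of which 46 had a mean count of at least 20. Of the 48 with at least 10 counts over both libraries, 37 were called different between the libraries, 28 higher in replicate 2 and 9 in replicate 1, beside 30.1% and 27.6% of all genes tested. Their median log2 ratio was 0.27, and it was 0.01 after the lowess curve on length, where 31 were called beside 53% of the tested genes with an annotated length. Past 2-fold were 3 of the 48, NRG1, EPGN and ADAM12, all higher in replicate 2, as were 4.34% of all genes tested. Measured from the lowess curve on length, their log2 ratios were 0.69 for NRG1, 1.56 for EPGN and 0.81 for ADAM12. Of these 3, only EPGN thus stayed past 2-fold. The negative binomial exact test of edgeR called 0 of the 48, and 5 had an unadjusted p under 0.05 in it, beside 5.40% of all genes. Its spread came from the same libraries, so it cannot decide whether these genes differ.

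Among other ERBB ligands, NRG1, a neuregulin that binds ERBB3 and ERBB4, had 714 and 1311 counts, or 31.0 and 72.9 CPM. EPGN, which encodes epigen, an EGFR ligand, had 35 and 72 counts. Both were higher in replicate 2, by 2.35-fold for NRG1 and 2.64-fold for EPGN. NRG2 went the other way with 108 and 46 counts. NRG3 had 1 and 2 counts and NRG4 had 1 in each library, within the limit that a count of 0 allows.

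The proteases that release the ligands and their carriers were expressed, with 6 of 7 at a mean count of at least 20. ADAM17, the main sheddase of AREG, EREG, HBEGF and TGFA, was the lowest of these per length, with 1.61 and 2.45 CPM per kb. RHBDF1, which encodes iRhom1, a carrier of ADAM17, was the highest by its mean, with 10.1 and 9.82 CPM per kb. ADAM12 had 5.43 and 11.5 CPM per kb, above RHBDF1 in replicate 2, and was 2.12-fold higher there than in replicate 1. RHBDL2, a rhomboid protease, had 14 and 8 counts.

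Of the adapters and transducers that act below the activated receptors, 12 of 13 had a mean count of at least 20. SHC1 was the highest, with 89.9 and 83.8 CPM per kb, and GAB1 the lowest of the 12, with 0.707 and 0.678. Between the libraries, 9 of the 12 tested were called, beside 57.7% of all genes tested. Of the 12, 7 were called higher in replicate 2 and 2 in replicate 1, beside 30.1% and 27.6% of all genes tested. GRB7, an adapter gene near ERBB2 on chromosome 17, had 3 and 4 counts, while ERBB2 had 2191 and 1877.

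Of the negative regulators, 12 of 13 had a mean count of at least 20. PTPN1, a phosphatase of receptor tyrosines, was the highest with 39.9 and 47.8 CPM per kb, and LRIG2 was the lowest of the 12 with 0.498 and 0.834. CBLC, a ubiquitin ligase of the CBL family, had 0 counts in both libraries. Of the 12 negative regulators tested, 9 were called, all higher in replicate 2, beside 57.7% of all genes called and 30.1% called higher in replicate 2. Their median log2 ratio was 0.35, and 0.36 after the lowess curve on length. The 9 endocytosis and sorting genes all reached a mean count of 20, by their means from USP8 with 3.12 and 4.27 CPM per kb to AP2M1, a subunit of the clathrin adapter AP-2, with 68.7 and 61.2. All 9 were called, 6 higher in replicate 2 and 3 in replicate 1, beside 30.1% and 27.6% of all genes tested. After the lowess curve on length, 6 of the 9 were called, beside 53% of the tested genes with an annotated length. Among 5 surface partners, CD44, a hyaluronan receptor that can hold HBEGF, was the highest with 116 and 114 CPM per kb. MUC1 had 6.11 and 4.24 CPM per kb, and MUC4 had 7 and 5 counts. Of the 5 surface partners tested, 3 were called, all higher in replicate 1, beside 27.6% of all genes called in that direction.

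**Figure D4:**
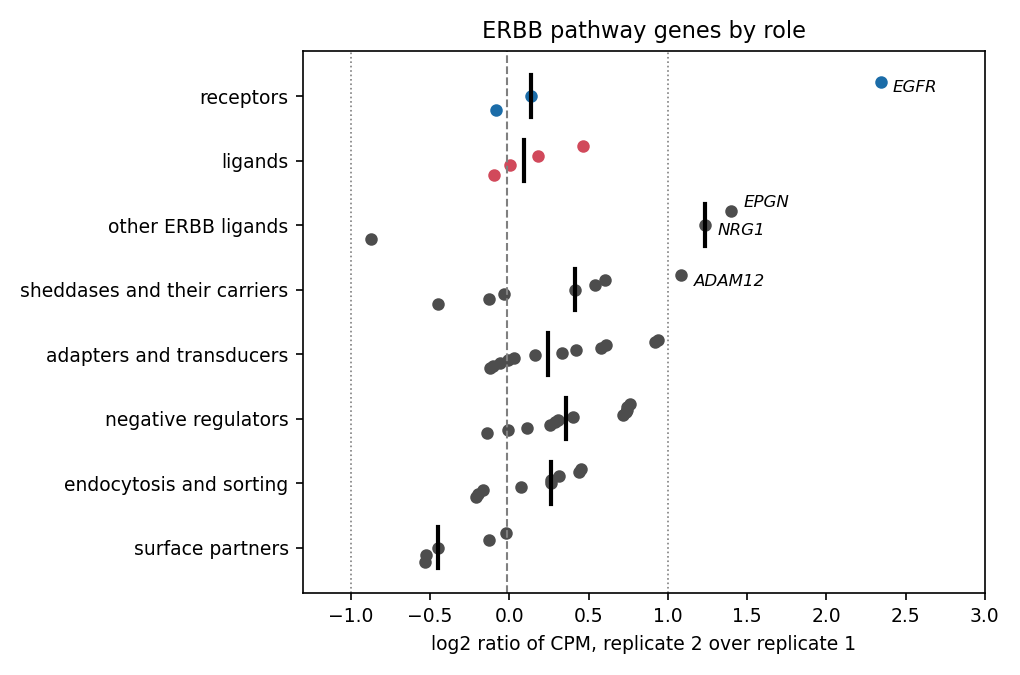
Log2 ratio of CPM, replicate 2 over replicate 1, of each receptor, ligand and pathway gene with at least 10 counts over both libraries, by role. Each dot is a gene and black bars are list medians; the dashed line is the median of all tested genes at −0.01, dotted lines mark 2-fold, and the genes past it are EGFR, EPGN, NRG1 and ADAM12.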

How the data were processed

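RNA-seq was measured in 2 libraries of doxorubicin-resistant SUM159 cells. For each library, the authors deposited a file of raw counts by gene symbol; per the paper's methods and the submitters' processing notes, reads were checked with FastQC, mapped to hg19 with HISAT2 and counted with HTSeq, and deepTools is also listed. The sources used here gave no tool versions, gene models or strand option. CPM were computed from the library totals, 23044084 and 17985508. GENCODE 44, mapped to GRCh37, gave coordinates and exonic lengths for 19313 symbols, 82.6%. The libraries were compared with binomTest of edgeR, an exact binomial test, with Benjamini-Hochberg adjustment over genes with at least 10 counts over both, after a test on simulated counts. Lowess curves used a span of 0.67. Exonic stretches of 100 bases were searched in the GRCh37 genome with BLAST. Members, gene lists and tests were chosen with earlier results of these data known. All 10 members were named. Not every marker examined is reported here. From each pathway list, the highest and lowest gene per kb among those with a mean count of at least 20, those under it and those past 2-fold were named. Alternatives covered scaling, filter, length, error model and libraries. R 4.3.3 with edgeR 4.0.16 and DESeq2 1.42.0 (size factors only), BLAST 2.17.0, samtools 1.23.1, and Python 3.11.15 with matplotlib 3.10.9, scipy 1.17.1, pandas 2.3.3 and numpy 2.4.6 were used.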

Additional observations from a re-analysis of the deposited data

How the results depend on the processing

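The receptor share of the summed level, 29.6% per kb, was 50.2% in CPM with no division by length and 18.4% without EGFR, the latter chosen after seeing the data, and ranged from 22.1% to 37.1% when either library was left out. It was 38.6% with the longest transcript. With AREG left out it was 30.4%, and with AREG divided by the share of stretches found once it was 23.2% (spliced transcript) or 16.0% (separate exons), all chosen after seeing the data. The number of members with a mean count of at least 20 was 6 without either library and 7 at a minimum of 10. The members called between the libraries stayed at 4 under TMM and DESeq2 scaling, no filter, a mean count of 20 and the lowess curve, and fell to 1 in the negative binomial test. These counts include EGFR, whose call follows from its choice and supports nothing, and without EGFR they were 3 and 0. The number of pathway genes called went from 37 to between 31 and 38 under the former and to 0 in the latter, which adds the spread between libraries to the counting error. That spread was estimated from the same libraries that were compared, so few calls follow from how the test was set up. The lowess curve turned ERBB2 from 0.13 to −0.15 (log2), the 1 reversal among 21 member ratios. Comparisons between the libraries could not be rerun without a library. No paired analysis was possible because the libraries form a single group.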
